A study of Mus musculus with 7 samples.

Results

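Highly conserved reference regions were examined as a set of 7741 among the 323369 reference regions on which ATAC-Seq reads were counted (2.39%). They were chosen by the deposited conservation score alone, as regions with a MeanCons above 1. MeanCons is the mean PhyloP score of a region over placental mammals, in which a positive score marks bases that changed more slowly than neutral sequence. Reads and subtypes played no part in the choice. The comparison set was the 216432 regions (66.9%) with a MeanCons from 0 to 0.5, and the 99196 regions of neither set entered only the counts over all regions. The lowest score within the conserved set was 1.00005 and the highest outside it was 0.999985. The conserved regions had a median score of 1.22 and a maximum of 2.76, and 266 of them were above 2, whereas the median of all reference regions was 0.0642.

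Reads came from 6 ATAC-Seq samples of interneuron nuclei, 2 each from SST, PV and VIP cells, which are the somatostatin, parvalbumin and vasoactive intestinal polypeptide subtypes of cortical interneurons. The mice were F1 progeny of a Cre driver (Sst-IRES-Cre, Pv-Cre or Vip-IRES-Cre) and SUN1-2xsfGFP-6xMYC, a Cre-dependent tag of the nuclear membrane, so each group is defined by where its driver is or was active. They were uninjected, aged 6 to 12 weeks and labelled male, although the protocol gives male and female mice. Nuclei were purified from whole cortex with an antibody to GFP. Per the study's methods, each replicate was an independent experiment on nuclei of a single animal, so the spread between replicates holds both animal and technical variation. In such bulk nuclei, fewer nuclei with an open region and a lower signal per nucleus cannot be told apart.

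ATAC-Seq cuts DNA with a transposase wherever nucleosomes leave it exposed, so reads pile up on active promoters and enhancers. Sequence can be conserved because it codes for protein or because it holds binding sites for transcription factors. Long conserved stretches outside genes are known to gather around genes for developmental transcription factors, many of which shape the interneuron subtypes in the embryo. Interneurons from the medial ganglionic eminence (MGE) give rise to SST and PV cells, and those from the caudal ganglionic eminence (CGE) to VIP cells.

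The central 300 bases of 4 conserved regions are given first, since the results return to them. They are a pair called higher in SST (Zfp423 and Gria3), a region called higher in PV (Gpd2) and a region called higher in VIP (Slc38a6). Sequences are from the plus strand of the mm10 assembly. Capitals mark matches on either strand to any of the 7 short motifs searched, which were TAATTA (bound by homeodomain proteins), CAGCTG and CATATG (E-boxes, bound by bHLH proteins), TGACTCA (AP-1), TGACGTCA (CREB), CATTGT (SOX proteins) and TGACCT (a nuclear receptor site). Each motif was searched on both strands, and any overlap between matches was allowed.
Zfp423, 9.12 kb, intron of Zfp423, chr8:87794551-87794850: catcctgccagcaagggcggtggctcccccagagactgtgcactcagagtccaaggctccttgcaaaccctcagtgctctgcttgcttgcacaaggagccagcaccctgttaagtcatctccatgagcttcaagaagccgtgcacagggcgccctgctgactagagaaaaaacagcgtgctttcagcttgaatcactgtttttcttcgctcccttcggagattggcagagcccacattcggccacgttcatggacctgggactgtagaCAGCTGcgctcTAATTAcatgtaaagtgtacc
Gria3, 660 kb, intergenic, chrX:40740760-40741059: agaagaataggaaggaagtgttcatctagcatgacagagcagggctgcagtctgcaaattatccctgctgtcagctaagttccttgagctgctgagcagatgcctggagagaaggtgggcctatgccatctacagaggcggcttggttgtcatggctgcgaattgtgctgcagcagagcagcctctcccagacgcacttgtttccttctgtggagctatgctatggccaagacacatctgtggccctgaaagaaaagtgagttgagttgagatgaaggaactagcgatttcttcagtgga
Gpd2, 42.0 kb, intron of Gpd2, chr2:57280279-57280578: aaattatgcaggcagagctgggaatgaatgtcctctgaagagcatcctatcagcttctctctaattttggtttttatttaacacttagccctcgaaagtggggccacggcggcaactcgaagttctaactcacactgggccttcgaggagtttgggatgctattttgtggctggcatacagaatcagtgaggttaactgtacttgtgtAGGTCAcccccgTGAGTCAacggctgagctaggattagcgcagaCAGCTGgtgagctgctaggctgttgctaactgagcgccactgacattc
Slc38a6, 80.7 kb, intergenic, chr12:73367586-73367885: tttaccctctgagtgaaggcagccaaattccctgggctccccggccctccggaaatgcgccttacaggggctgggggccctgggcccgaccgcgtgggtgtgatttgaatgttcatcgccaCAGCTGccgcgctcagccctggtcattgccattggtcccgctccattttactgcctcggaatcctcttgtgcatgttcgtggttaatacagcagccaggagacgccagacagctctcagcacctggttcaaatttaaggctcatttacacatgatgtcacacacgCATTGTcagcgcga
Each is named by the gene with the nearest protein-coding start and its distance from the centre of the region, which gives a place and not a target. The Slc38a6 stretch had the most G and C of the 4, at 57.0%, with 16 CpG dinucleotides, and the Gpd2 stretch the least, at 49.3%. No match was found in the Gria3 stretch, which says only that these letters are not in this window.

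The samples held 1801883 to 2256073 reads on the reference regions, of which 3.11 to 3.37% lay on conserved regions. Across the 1430 conserved regions that were tested for subtype differences, log2 CPM correlated at 0.896 between the SST replicates, 0.932 between the PV replicates and 0.943 between the VIP replicates, and at 0.528 to 0.857 between samples of different subtypes. These correlations are across regions, which are not independent. The SST replicates differed most, with a chi-square of 3.63 per degree of freedom over all tested regions, against 1.34 for PV and 1.44 for VIP. The summed reads around the marker genes of each subtype were highest in the samples of that label, although single markers were not all so. The SST marker Elfn1 had 90.7 and 106 CPM in VIP and 78.0 and 88.7 in SST, and the VIP marker Tac2 had 33.3 and 38 in VIP and 33.1 and 35.0 in SST. Another VIP marker, Adarb2, had 160 and 113 in VIP and 128 and 118 in PV. The summed CPM of the SST marker list was 290 to 306 in SST samples and 168 to 210 in the others, that of the PV list 335 to 350 against 154 to 215, and that of the VIP list 493 to 555 against 196 to 242. Lists of other cell types were also covered by reads. Excitatory markers summed to 160 to 197 CPM, microglial to 204 to 271 and astrocyte to 69.7 to 96.6. Oligodendrocyte markers were lower in VIP samples (163 to 171) than in the others (228 to 242), while the endothelial sum was higher (62.1 to 62.6 against 39.0 to 48.3). That sum was higher through Tek (47.2 and 53.6 in VIP against 17.2 to 24.7), as Flt1 was lower in VIP (7.15 and 11.9 against 13.7 to 22.8) and Cldn5 was at 1.79 and 2.98 against 2.66 to 6.66. Of the defining markers of these lists, only Cox6a2 was at 0 in a sample, VIP replicate 2. The part of other cell types in the values below was not tested.

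Conserved regions lay closer to genes than low-conservation regions. Within 1 kb of the start of a protein-coding transcript lay 16.5% of them, against 6.85% of low-conservation regions. These are called start regions, and the rest distal. Distal regions that overlap a coding exon made up 31.3% of all conserved regions, against 7.28% of low-conservation regions. The overlap could be of any length, also where a region is named below as a coding exon. Introns held 19.4% against 33.2%, and intergenic DNA 30.0% against 50.7%. The median distance to a start was 35107 bases against 44194. The conserved regions had a like GC content (51.6% against 51.2%) but more CpG dinucleotides, a mean of 9.22 against 5.79 in the central 300 bases, and less repeat sequence, 6.67% against 19.7%. They overlapped a neighbouring reference region more often, in 25.9% against 16.7%. Their median width was 696 bases against 670.

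Conserved regions carried more reads per length in each of the 6 samples. Density is given in RPKM, the reads per kb of region for every 1000000 reads on reference regions. On conserved regions it was 5.79 and 5.85 RPKM for VIP, 5.46 and 5.50 for SST and 5.45 and 5.40 for PV. On low-conservation regions it was 3.80 to 3.85. The ratio was thus 1.43 and 1.43 in SST, 1.42 and 1.4 in PV and 1.52 and 1.54 in VIP. The mean log2 ratio was 0.54 ± 0.06 (SD, n = 6 samples), and an exact two-sided sign-flip permutation test gave p = 0.0312, the smallest that 6 samples allow. This test holds the sets of regions fixed, so its p covers the spread between samples and not that between regions. Most conserved regions were nonetheless sparsely covered. The median had 15 reads over the 6 samples, 258 (3.33%) had none, and the decile with the most reads held 67.6% of the 392180 reads on the set.

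The ratio differed between classes of region. Start regions held 58.8% of the reads on conserved regions and 51.2% of those on low-conservation regions. Among start regions the direction turned, and conserved regions had fewer reads per length. Their density was 17.4 to 19.6 RPKM, while that of low-conservation start regions was 23.0 to 26.6. The ratio was 0.714 and 0.741 in SST, 0.757 and 0.757 in PV and 0.733 and 0.737 in VIP. Among distal regions, conserved regions had the higher density in each sample, 2.67 to 3.00 against 1.86 to 2.21. The same sign was found in coding exons, other exons, introns and intergenic regions, with mean ratios of 1.19, 1.23, 1.25 and 1.4. Each of the 7 comparisons (all, start, distal and the 4 distal classes) had p = 0.0312 in the exact sign-flip permutation test, and 0.0312 after Benjamini-Hochberg adjustment over the 7. As each sits at the floor of the test, these values do not rank the classes. They say only that the samples had the same sign, with the regions held fixed. Where low-conservation regions were weighted to the class makeup of the conserved set, the pooled ratio fell below 1 in each sample, to between 0.866 and 0.942. That weighting changed the shares of all 5 classes together, and the part of each class was not tested.

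**Figure D1:**
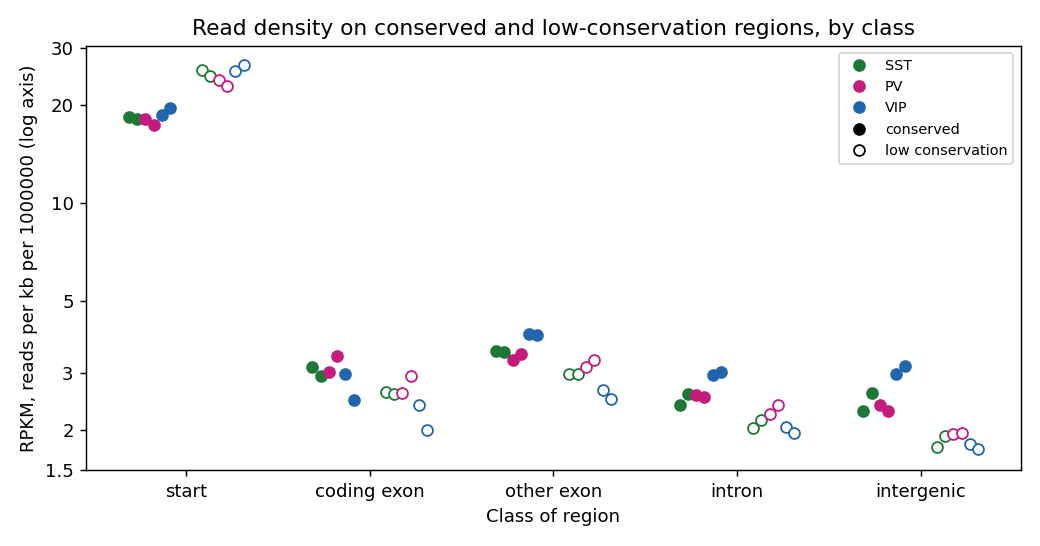
Read density in RPKM (log axis) by class of region, for conserved (filled) and low-conservation (open) regions, with 1 point for each of the 6 samples coloured by subtype. Conserved start regions lie at 17.4 to 19.6 and low-conservation start regions at 23.0 to 26.6, while in the other classes the filled points of a sample lie above its open points.

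The excess on conserved distal regions was largest in VIP samples. There the density was 3.00 and 2.88 RPKM in VIP, 2.67 and 2.75 in SST and 2.69 and 2.80 in PV. The low-conservation distal regions had their lowest values in VIP replicate 2 (1.86) and their highest in PV replicate 2 (2.21). The ratio was 1.53 and 1.55 in VIP, 1.36 and 1.33 in SST and 1.27 and 1.26 in PV, so no subtype overlapped another. The VIP ratio exceeded the mean of the SST and PV ratios 1.18-fold on distal regions. In intergenic regions the ratio was 1.65 and 1.79 in VIP, 1.29 and 1.37 in SST and 1.23 and 1.17 in PV. In introns it was 1.44 and 1.55 in VIP, 1.18 and 1.21 in SST and 1.14 and 1.06 in PV. Coding exons showed less of this, with 1.25 and 1.23 in VIP and 1.14 to 1.20 in the other samples. Assigning the 6 samples to 3 pairs in all 15 ways, an exact permutation test of the differences between subtypes gave p = 0.0667, the smallest that it can give, for all regions together and for distal, other exon, intron and intergenic regions (0.0934 after adjustment over the 7 comparisons). For start regions and coding exons the exact permutation p was 0.2. This permutation test cannot reach a threshold of 0.05 with 6 samples in 3 pairs.

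**Figure D2:**
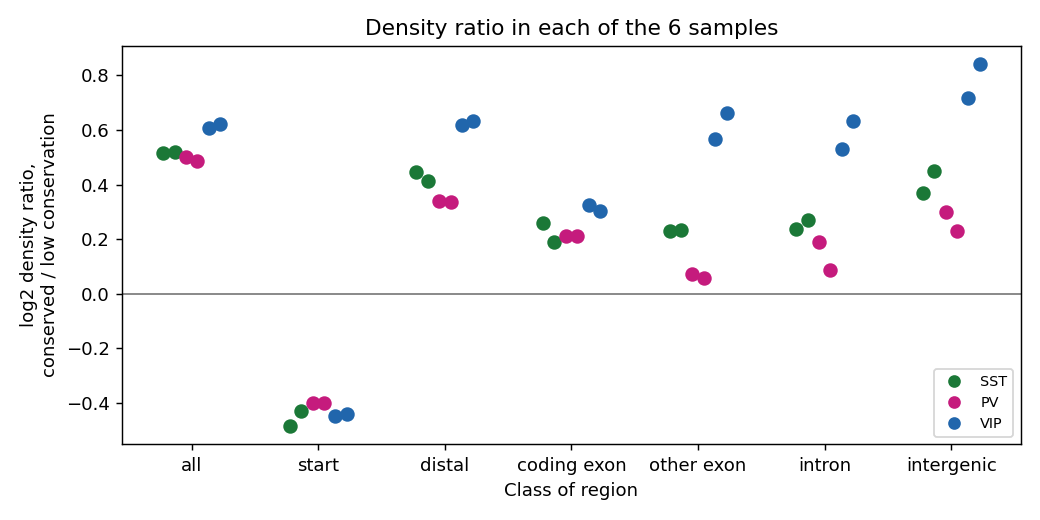
The log2 ratio of read density on conserved to low-conservation regions by class, with 1 point for each of the 6 samples coloured by subtype and a line at equal density. Start regions lie below 0 in each sample, and the VIP points lie above the SST and PV points in the distal classes.

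Density did not rise steadily with conservation. Among start regions it reached 26.8 to 30.6 RPKM (means of the subtypes) at a MeanCons of 0.3 to 0.4, and was 18.9 to 21.3 at 1 to 1.25, 17.9 to 18.5 at 1.25 to 1.5, and 13.1 to 13.5 at 1.5 to 2. The 22 start regions above 2 had 4.17 to 4.89. Distal regions rose from 1.76 to 2.13 at 0 to 0.1 to between 2.68 and 2.94 at 0.4 to 0.5. From there they changed less, with 2.85 to 3.21 at 1.25 to 1.5 and 2.58 to 2.65 at 1.5 to 2, and the 244 distal regions above 2 had 1.81 to 2.31. The order of subtypes on distal regions turned along the score. VIP samples had the lowest density at 0 to 0.1 (1.83 and 1.69, against 1.91 to 2.18 in the others) and the highest at 1 to 1.25 (3.03 and 2.93, against 2.72 to 2.82), but not at 1.5 to 2 (2.67 and 2.49, against 2.50 to 2.68). Above 2 they were again the highest (2.37 and 2.26, against 1.62 to 2.05). With the limit for members at 1.5 in place of 1, the pooled log2 ratio was -0.014 with an exact permutation p of 0.438.

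**Figure D3:**
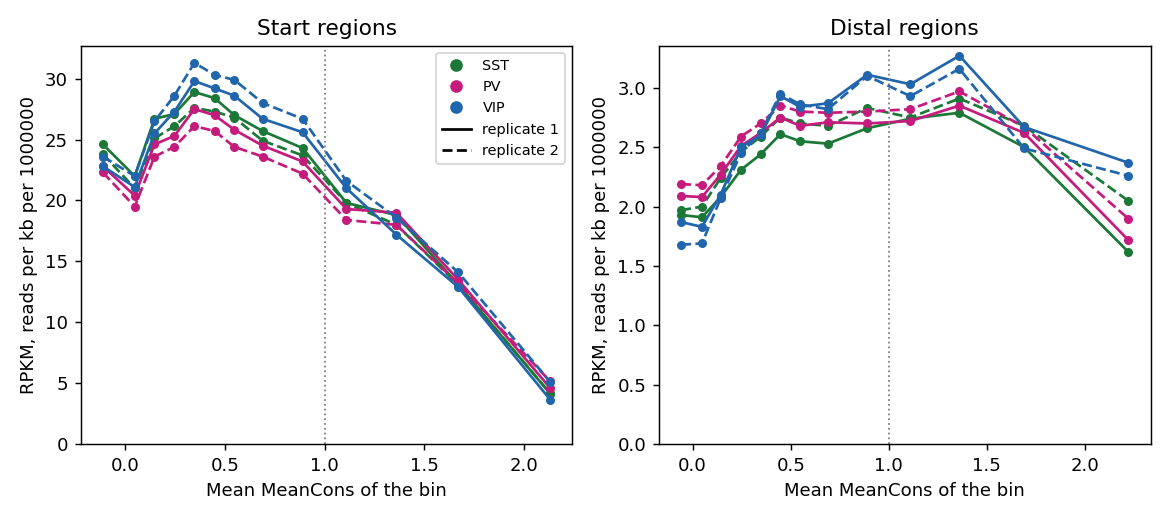
Read density in RPKM against the mean MeanCons of bins of regions, for start regions (left) and distal regions (right), with 1 line for each sample coloured by subtype. The dotted line marks the limit of 1. Start regions fall from 18.4 to 21.6 just above the limit to 3.67 to 5.17 in the last bin, which holds 22 regions, and the VIP lines cross those of SST and PV among distal regions.

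The deposited table of peak marks, in which 1 stands for an accessible region, gave a like picture. Of the conserved regions, 32.6% and 21.3% were marked in VIP, 20.4% and 17.1% in PV and 18.3% and 19.7% in SST. Low-conservation regions were marked in 12.3 to 21.8%. The mean difference was 6.43 percentage points, with p = 0.0312 in the exact two-sided sign-flip permutation test over the 6 samples. VIP replicate 1 stands apart here, as 1037 of its 2526 marked conserved regions had no peak in its own peak list. PV replicate 1 had 215 such marks, and the other samples none. Counting listed peaks only, 17.1 to 21.3% of conserved regions and 12.3 to 14.3% of low-conservation regions held a peak, a mean difference of 5.73 points. Start regions again went the other way, with 39.2 to 48.9% of conserved and 52.8 to 59.7% of low-conservation start regions marked. Over the 6 samples, 4177 conserved regions (54.0%) had no mark and 669 (8.64%) were marked in each. Low-conservation regions had 66.7% and 5.67%.

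Peaks on conserved distal regions had slightly larger confidence values than those on low-conservation distal regions. The median −log10 q-value was 7.96 to 11.4 on the former and 7.22 to 9.93 on the latter, and it was higher on conserved regions within each sample. On start regions the median was 19.8 to 26.5 on conserved and 30.9 to 42.5 on low-conservation regions.

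Differences between subtypes were tested region by region with edgeR, as each subtype against the mean of the other two. The fit used a single estimate of spread per region, shared by the subtypes. As the SST replicates differed most, the SEs and adjusted p of SST may be too small, which was not tested. Of the 40338 regions with enough reads to test, 1430 were conserved, 676 of them start and 754 distal regions. This is 18.5% of the conserved set, since 52.8% of its start regions but 11.7% of its distal regions passed the filter on low counts. A region could pass through the subtype in which it was high, so each share of called regions below is a description, given beside the share of all tested regions. In SST, 98 conserved regions were higher and 76 lower, or 6.85% and 5.31% of those tested, beside 8.30% and 5.57% of all regions tested. In PV, 198 were higher and 164 lower, or 13.8% and 11.5%, beside 17.3% and 12.0%. In VIP, 375 were higher and 304 lower, or 26.2% and 21.3%, beside 25.1% and 24.0%. The share of conserved regions was thus near that of all tested regions, slightly above it for higher in VIP and below it in the other directions. With DESeq2, the shares of conserved regions higher and lower were 2.17% and 1.61% in SST (beside 2.14% and 1.46% of all tested), 4.69% and 4.13% in PV (beside 6.18% and 4.50%) and 19.6% and 11.3% in VIP (beside 18.0% and 12.5%). Without the filter on low counts they were 1.66% and 0.735% in SST (beside 1.25% and 0.569%), 1.54% and 2.25% in PV (beside 1.68% and 1.53%) and 8.10% and 2.73% in VIP (beside 5.53% and 2.40%). In these refits of the same reads, higher in VIP lay above the share of all tested regions and higher in PV below it. The other directions did not all keep their side. On start regions alone both were reversed in edgeR, with 18.2% higher in VIP beside 19.6%, and 11.8% higher in PV beside 10.7%. The counts also moved where 1 sample was left out. Fewer regions were called in PV without either PV replicate, and fewer lower in VIP without either VIP replicate. Without SST replicate 1, more were called higher in SST and lower in PV. Such a fit leaves 1 sample in a subtype and tested 1794 to 1900 conserved regions in place of 1430, so its counts are not set beside those of the main fit. Among the called conserved regions, the CPM of the groups did not overlap in 68 higher and 56 lower in SST (4.76% and 3.92% of those tested, beside 5.89% and 4.19% of all regions tested), 144 and 115 in PV (10.1% and 8.04%, beside 12.8% and 9.14%) and 351 and 273 in VIP (24.5% and 19.1%, beside 23.4% and 21.0%). In all, 765 conserved regions (53.5%, beside 57.6% of all tested) were called in at least 1 of the comparisons and 665 in none. A stricter rule, in which a subtype had to pass against each of the other two, left 22 conserved regions higher in SST and 14 lower, 39 and 20 in PV, and 241 and 164 in VIP. Of all tested regions it left 2.01% and 0.830% in SST, 3.36% and 1.93% in PV and 15.7% and 12.7% in VIP.

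Of the 98 conserved regions higher in SST 84 were distal, as were 118 of 198 in PV and 252 of 375 in VIP. Over all tested regions, 2882 of 3349, 5282 of 6964 and 7037 of 10127 were. Among tested distal regions, VIP was higher in 33.4% of conserved and 28.3% of low-conservation regions, and lower in 24.1% and 29.7%, beside 28.6% and 28.3% of all distal regions tested. PV was higher in 15.6% of conserved and 22.6% of low-conservation distal regions, and lower in 12.6% and 10.7%, beside 21.5% and 11.1% of all. Higher in VIP had the larger share among conserved regions in each distal class, with 39.8% against 30.4% in intergenic regions, 35.3% against 28.5% in introns, 24.4% against 20.2% in coding exons and 32.1% against 18.9% in other exons, where 28 conserved regions were tested. Over all tested regions of these classes it was 30.7%, 28.7%, 21.0% and 22.7%. The median log2 fold change of VIP over the others was 0.05 on conserved and -0.22 on low-conservation distal regions, while that of PV was -0.01 and 0.15. Of the conserved start regions tested, 18.2% were higher in VIP, 11.8% in PV and 2.07% in SST, beside 19.6%, 10.7% and 2.97% of all start regions tested. The PV shares differed with the reads per region. In the lowest quartile of all tested regions by mean log CPM, PV was higher in 17.5% of 275 conserved and 25.2% of 6361 low-conservation regions. In the next quartile it was higher in 11.5% and 18.2%, and in the third in 16.0% and 16.7%. In the highest it was higher in 10.8% of 343 and 11.9% of 5816. Of all regions tested in these quartiles the shares were 24.0%, 17.1%, 16.0% and 12.0%. VIP was higher in 32% of conserved and 28.8% of low-conservation regions in the lowest quartile, 23.3% and 21.8% in the next, 21.7% and 23.8% in the third, and 30.6% and 27.3% in the highest, beside 28.8%, 22.1%, 22.8% and 26.7% of all regions tested.

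**Figure D4:**
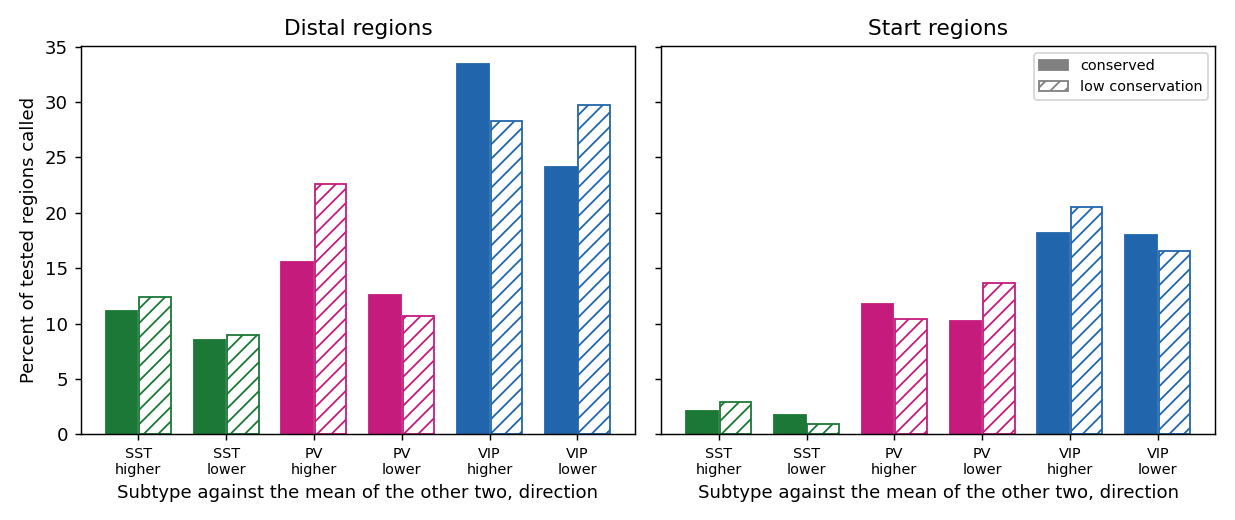
Percent of tested conserved (filled) and low-conservation (hatched) regions that passed the edgeR test in each comparison and direction, for distal regions (left) and start regions (right). Among distal regions VIP was higher in 33.4% of conserved and 28.3% of low-conservation regions, and PV in 15.6% and 22.6%.

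SST samples had more reads on a group of intronic and intergenic conserved regions. The Zfp423 region printed above had 28 and 54 reads in SST, 3 and 4 in PV and 8 and 10 in VIP, a log2 fold change of 2.78 ± 0.38 (SE, adjusted p = 9.95e-05 in edgeR's quasi-likelihood test, as for the regions that follow). Zfp423 encodes a zinc finger transcription factor. A second region in its intron, at chr8:87836699-87837461 with a MeanCons of 1.69, had 69 and 120 reads in SST, 57 and 36 in PV and 7 and 12 in VIP, a log2 fold change of 2.11 ± 0.28 (adjusted p = 8.03e-05). The first region was thus low in both other subtypes, whereas PV lay between SST and VIP at the second. A region in an intron of Vps41, a subunit of a complex for fusion with lysosomes, had 47 and 77 reads in SST against 9 to 16 in the others, a log2 fold change of 2.19 ± 0.31 (adjusted p = 0.000145). It lies at chr13:18743625-18744478.

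The Gria3 region had 47 and 82 reads in SST, 44 and 29 in PV and 0 and 2 in VIP. Gria3 encodes a subunit of AMPA-type glutamate receptors. The region was called higher in SST (adjusted p = 4.8e-05) and in PV (adjusted p = 0.00131) and lower in VIP (adjusted p = 4.84e-07). In reads scaled to depth, VIP samples had 54.2-fold fewer than the others, with an exact 95% counting interval of 14.8 to 450. The region was thus covered in SST and PV and nearly without reads in VIP.

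The 4 conserved regions named for lower reads in SST had their most reads in VIP. A start region of Gprc5b, an orphan G protein-coupled receptor, had its centre 0.488 kb from the annotated start. It had 8 and 14 reads in SST, 37 and 34 in PV and 123 and 193 in VIP, with log2 fold changes of -2.80 ± 0.33 in SST (adjusted p = 2.51e-05) and 2.85 ± 0.25 in VIP (adjusted p = 2.87e-08). An intergenic region 97.7 kb from Hao2 had 1 and 2 reads in SST, 5 and 6 in PV and 65 and 107 in VIP (adjusted p = 0.00048 in SST). A coding exon of Rnf220, an E3 ubiquitin ligase, had 2 and 2 in SST, 5 and 5 in PV and 88 and 105 in VIP (adjusted p = 0.00049 in SST). Both regions had few reads outside VIP. An intron of Bach2, a transcriptional repressor, had 7 and 16 reads in SST, 48 and 25 in PV and 69 and 75 in VIP, with SST the lowest (-2.19 ± 0.37, adjusted p = 0.000588).

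Of the 4 regions named for higher reads in PV, 3 lay far from any start and 1 at a start. The Gpd2 region printed above had 80 and 42 reads in PV, 22 and 18 in SST and 2 and 5 in VIP, a log2 fold change of 2.99 ± 0.36 (adjusted p = 2.29e-05). Gpd2 encodes the mitochondrial glycerol-3-phosphate dehydrogenase. An intergenic region 232 kb from BC052040 had 73 and 46 reads in PV, 19 and 29 in SST and 6 and 11 in VIP (2.21 ± 0.31, adjusted p = 9.38e-05). These regions had intermediate levels in SST. A region 658 kb from Nr4a2, a nuclear receptor gene induced by activity, had 93 and 57 reads in PV and 17 to 25 in the other samples (1.99 ± 0.28, adjusted p = 9.63e-05). The start of Mypn, which encodes a protein of the muscle sarcomere, had 18 and 15 reads in PV, 1 and 0 in SST and none in VIP (adjusted p = 6.61e-05), 73.7-fold more in PV with a counting interval of 12.3 to 3000.

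The regions named for lower reads in PV were starts and coding exons. The start of Marcks, an actin-binding substrate of protein kinase C, had 8 and 12 reads in PV, 31 and 61 in SST and 90 and 134 in VIP, a log2 fold change of -2.64 ± 0.36 (adjusted p = 7.89e-05). The start of Jup, which encodes the junction protein plakoglobin, had 46 and 53 in PV, 119 and 146 in SST and 170 and 241 in VIP (-1.55 ± 0.21, adjusted p = 8.14e-05). A coding exon of Tmem132e, a transmembrane protein gene, had 5 and 6 in PV, 21 and 44 in SST and 46 and 73 in VIP (-2.79 ± 0.44, adjusted p = 0.00022). In each of the 3 the SST samples lay between PV and VIP.

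The named regions with more reads in VIP had low reads in both other subtypes. A coding exon of Shank3, a scaffold protein of the postsynaptic density, had 188 and 246 reads in VIP, 15 and 14 in SST and 11 and 8 in PV, a log2 fold change of 4.06 ± 0.24 (adjusted p = 3.3e-10). This region, at chr15:89548615-89549370, was also among those named as lower in PV (-2.38 ± 0.33, adjusted p = 8.48e-05). The Slc38a6 region printed above had 101 and 174 reads in VIP, 4 and 5 in SST and 1 and 2 in PV (5.51 ± 0.35, adjusted p = 7.8e-10). Slc38a6 belongs to a family of amino acid transporters. An intergenic region 215 kb from Tbc1d5 had 109 and 113 reads in VIP and 1 to 6 in the others (4.71 ± 0.37, adjusted p = 7.25e-09), and the Rnf220 exon had a VIP change of 4.74 ± 0.34 (adjusted p = 2.86e-09). On each of these 4 regions the VIP replicates held most of the reads. Among regions lower in VIP, the start of Nfe2l1, a transcription factor of the stress response, had 15 and 18 reads in VIP and 113 to 134 in the others (-3.03 ± 0.27, adjusted p = 3.18e-08). An intergenic region 290 kb from Gm765 had 7 and 8 in VIP, 87 and 69 in SST and 63 and 43 in PV (-3.21 ± 0.37, adjusted p = 9.83e-07). The second Zfp423 region and the Gria3 region complete this group.

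**Figure D5:**
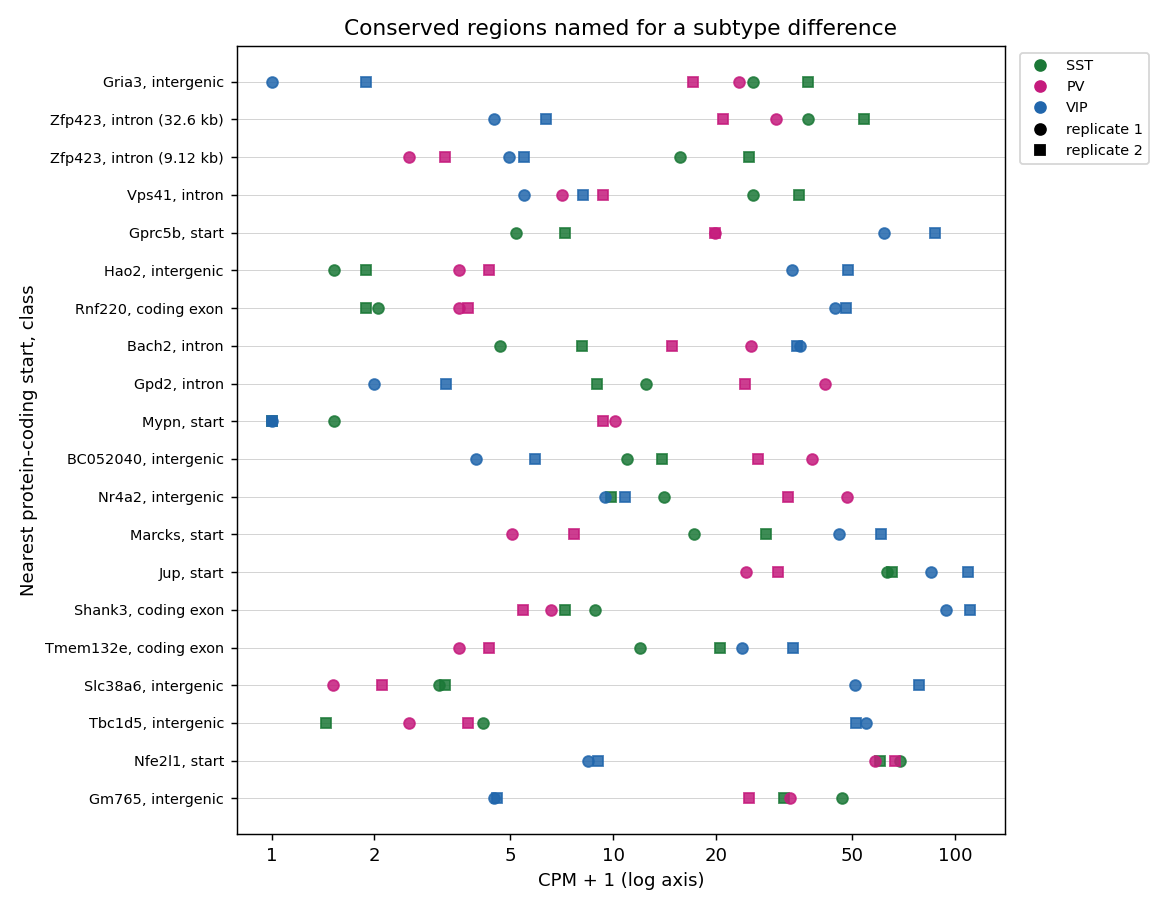
CPM + 1 (log axis) of the 20 conserved regions named for a subtype difference, with circles for replicate 1 and squares for replicate 2, coloured by subtype. Each row is labelled by the nearest protein-coding start and the class of the region. VIP samples stand apart at Shank3, Slc38a6, Rnf220, Tbc1d5 and Hao2 with more reads, and at Gria3, Nfe2l1 and Gm765 with fewer.

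The 3 conserved regions with the highest density were starts with many reads in each subtype. The start of Tle4, a transcriptional corepressor, had the highest density, with 567 and 483 reads in SST, 539 and 503 in PV and 466 and 467 in VIP. The start of Smarca2, an ATPase of chromatin remodelling, had 459 and 604, 431 and 331, and 384 and 472 reads in the same order. The start of Gpbp1 had 316 and 358, 339 and 272, and 250 and 290. None passed the threshold in SST or PV (adjusted p from 0.0918 to 0.841 in edgeR). Gpbp1 had a log2 fold change of -0.38 in VIP (adjusted p = 0.0389 in edgeR), a call that was lost with DESeq2 (adjusted p = 0.201). It was also lost in edgeR with RLE size factors in place of TMM (adjusted p = 0.0692) and with a replicate block (adjusted p = 0.0589). Without the filter on low counts the change was -0.13 (adjusted p = 0.859 in edgeR).

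A high conservation score did not come with many reads in a region of an intron of Lrmda. With a MeanCons of 2.67, among the highest of the set, it had 2 and 1 reads in SST, 7 and 3 in PV and none in VIP, too few to be tested.

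Of the gene regulatory elements (GREs) that the study screened, 64 belong to the conserved set. They were chosen for their SST signal in these same samples, so their reads are a description. Together they had 174 and 476 reads in SST, 9 and 14 in PV and 9 and 6 in VIP. Only 4 passed the filter on low counts, and the 4 were called higher in SST, beside 8.30% of all regions tested. The GREs with the most SST reads were a region 105 kb from Slc30a10, with 25 and 17 in SST and 0 to 4 in the others, a region 893 kb from Nxph1, with 5 and 21 in SST and 0 to 2 in the others, and a coding exon of Rcor3, with 12 and 13 in SST and 1 in each of the others. With DESeq2 the Rcor3 exon did not pass in SST (adjusted p = 0.0508). Over the 64 GREs together, more reads came from SST replicate 2 than from replicate 1.

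Conserved regions gathered at some genes. They fell to 3432 nearest genes, of which 2011 had a single region, and 86 genes with 10 or more held 1434 of them. Zeb2 had the most, with 51 of the 212 reference regions nearest to it. It was followed by Mef2c with 39 of 157, 5730522E02Rik with 34 of 146, Zfp608 with 32 of 186 and Sox5 with 31 of 203. In the whole reference set the conserved share was 2.39%. These genes, and the 3 described next from the 25 with the most regions, were chosen after their values were seen, and their counts of calls stand beside 17.3% of all tested regions higher in PV and 25.1% higher and 24.0% lower in VIP. Zeb2 and Mef2c encode transcription factors of MGE-derived interneurons, and Sox5 a SOX transcription factor. The summed CPM of the conserved regions nearest to Zeb2 was 126 and 122 in PV, 78.7 and 83.8 in SST and 92.3 and 76.9 in VIP, and 3 of the 8 tested regions were higher in PV. At Sox5 it was 62.6 and 74.7 in VIP, 32 and 39.9 in SST and 27.5 and 29.4 in PV, and 3 of 4 tested regions were higher in VIP. At Lmo4, a regulator with LIM domains, it was 109 and 96.0 in PV, 69.8 and 59.0 in SST and 45.2 and 58.1 in VIP, with 3 of 7 tested regions higher in PV and 4 lower in VIP.

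Around 9 CGE-lineage regulators (Nr2f1, Nr2f2, Prox1, Sp8 and others), the 96 conserved regions had their highest density in VIP samples. It was 4.01 and 4.16 RPKM in VIP, 3.15 and 3.02 in SST and 2.82 and 2.95 in PV, and VIP did not overlap the others. VIP was also highest on the conserved distal regions as a whole, with 3.00 and 2.88 against 2.67 to 2.80. The pooled density includes the Nr2f2 region described below, which alone had 96 and 125 reads in VIP, and its part was not tested. The low-conservation regions of these genes had 1.97 to 2.22 in VIP and 1.77 to 1.98 in the others. Of the 15 tested, 4 were higher and 5 lower in VIP, 2 higher and none lower in SST, and 1 higher and 3 lower in PV. Over all tested regions, to be read beside this and the counts of the lists that follow, 25.1% were higher and 24.0% lower in VIP, 8.30% and 5.57% in SST and 17.3% and 12.0% in PV. A region 230 kb from Nr2f2, a nuclear receptor of CGE cells, had 96 and 125 reads in VIP, 12 and 15 in SST and 4 and 10 in PV (3.35 on the log2 scale, adjusted p = 4.37e-08). A region 214 kb from Prox1, a homeobox gene of CGE-derived interneurons, went the other way, with 0 and 1 reads in VIP, 23 and 23 in SST and 8 and 3 in PV. VIP had 30.6-fold fewer reads there (exact 95% counting interval 5.27 to 1230, adjusted p = 0.000446). A region 228 kb from Nr2f1 had 97 and 51 reads in PV, 51 and 43 in SST and 28 and 36 in VIP, with a PV change of 1.08 (adjusted p = 0.00573) that was 0.57 without PV replicate 1 (adjusted p = 0.376).

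Around 10 MGE-lineage regulators (Nkx2-1, Lhx6, Sox6, Satb1, Mef2c, Zeb2 and others), the 136 conserved regions had 2.79 and 2.80 RPKM in PV, 2.34 and 2.53 in SST and 2.41 and 2.16 in VIP. The low-conservation regions nearest to these genes had a similar density in PV and SST (2.78 and 2.92, and 2.47 and 2.51) and a higher one in VIP (2.72 and 2.85). Of 19 tested, 3 were higher and 1 lower in PV, 2 higher and 4 lower in VIP, and none passed in SST. Lhx6, a homeobox gene of MGE-derived interneurons, had 1 conserved region with 1 to 11 reads a sample, too few to be tested. A region 74.5 kb from Mef2c had 38 and 51 reads in VIP, 36 and 27 in SST and 17 and 12 in PV, with edgeR changes of 0.92 in VIP (adjusted p = 0.018) and -1.20 in PV (adjusted p = 0.0148), and neither passed with DESeq2 (adjusted p = 0.081 and 0.0737) or without PV replicate 2 (adjusted p = 0.0714 and 0.163).

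The homeobox genes Dlx1, Dlx5 and Dlx6, which act in the interneuron lineage, had their most covered conserved regions at their starts, and these differed in direction in VIP. The start of Dlx1 had 93 and 96 reads in VIP, 67 and 50 in SST and 61 and 32 in PV, with a VIP log2 fold change of 0.73 (adjusted p = 0.0222). The start of Dlx5 had 19 and 22 reads in VIP, 41 and 37 in SST and 50 and 45 in PV, with a VIP change of -1.20 (adjusted p = 0.00332). The start of Dlx6 had 42 and 38 in VIP, 52 and 74 in SST and 60 and 56 in PV, with a VIP change of -0.71 (adjusted p = 0.0291). These signs held under each alternative, scalings included, but the calls did not. With DESeq2 the adjusted p was 0.069 for Dlx1 and 0.13 for Dlx6, and without VIP replicate 1 none of the 3 passed (0.0798 for Dlx1, 0.0668 for Dlx5 and 0.14 for Dlx6).

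A list of 35 other transcription regulators of the brain had the largest number of conserved regions, 359, of which 63 were tested. Their density was 4.12 and 4.63 RPKM in VIP, 3.20 and 3.43 in SST and 3.82 and 3.77 in PV. The 1619 low-conservation regions nearest to the same genes had their lowest density in VIP, with 1.81 and 1.70, against 2.06 to 2.38 in the others. In VIP 21 of the 63 were higher and 14 lower, in PV 11 and 8, and in SST 2 and 7, with a median log2 fold change of 0.42 in VIP, 0.08 in PV and -0.25 in SST, beside -0.04, 0.02 and 0.02 over the conserved regions tested. An intron of Nfia, a factor of the nuclear factor I family, had 207 and 281 reads in VIP, 133 and 92 in PV and 50 and 119 in SST (1.20 in VIP, adjusted p = 0.000146). A region 116 kb from Meis2, a homeobox gene, had 41 and 86 reads in VIP, 7 and 8 in SST and 1 and 1 in PV (4.30 in VIP, adjusted p = 1.38e-07). An intron of Sox5 had 29 and 44 in VIP and 2 to 5 in the others (3.31, adjusted p = 4.15e-06). The start of Rarb, a retinoic acid receptor, went with PV instead, with 91 and 68 reads in PV, 35 and 42 in SST and 22 and 19 in VIP (1.66 in PV, adjusted p = 0.000184).

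The genes by which the subtypes are known had few conserved regions. Of 14 subtype peptides and markers, 3 were nearest to any (Npy, Crh and Reln, 5 regions in all), and Sst, Pvalb and Vip had none. Of the 3 regions tested, 1 was higher in PV, and 1 higher and 1 lower in VIP. A start region of Crh, which encodes corticotropin-releasing hormone, had 80 to 134 reads in each sample and no call (adjusted p from 0.345 to 0.911). Of 5 genes for GABA synthesis and transport, only Slc32a1, the vesicular GABA transporter, had one, a coding exon with 15 to 26 reads a sample and no call. Of 12 genes of excitatory neurons 9 had 35 conserved regions, and of the 7 tested 3 were higher and 1 lower in VIP. Tbr1 and Fezf2 are also in the list of brain transcription regulators above, so their regions are counted in both lists. The conserved regions had 3.39 and 3.57 RPKM in VIP, against 2.48 and 2.05 on low-conservation regions, and 3.39 and 2.98 against 2.95 and 2.82 in SST. In PV they had the lower density, with 2.69 and 2.84 against 3.10 and 3.33. A region 45.5 kb from Fezf2, a regulator of cortical projection neurons, had 4 and 2 in VIP, 48 and 28 in SST and 25 and 19 in PV (-3.35 in VIP, adjusted p = 3.89e-05).

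Activity-regulated genes had 24 conserved regions, with 5.87 to 8.02 RPKM against 3.71 to 5.16 on low-conservation regions, and 8 tested, of which 1 was higher and 3 lower in VIP, 2 higher and 1 lower in PV and 1 higher in SST. A start of Bdnf, a neurotrophin gene, had 1 and 1 reads in VIP, 9 and 31 in SST and 28 and 10 in PV, 20.9-fold fewer in VIP (exact 95% counting interval 5.6 to 176, adjusted p = 0.000192). The start of Egr1 had 115 and 95 in VIP, 54 and 104 in SST and 44 and 42 in PV, with a PV change of -0.90 (adjusted p = 0.015) that did not pass with DESeq2 (adjusted p = 0.056) or without either PV replicate (adjusted p = 0.099 and 0.0801). The 15 conserved regions at 14 Hox genes, which pattern the hindbrain and trunk and not the cortex, had 0.863 to 1.54 RPKM, below the 2.30 to 3.29 of the low-conservation regions there, and none had enough reads to be tested.

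In their sequence, conserved distal regions held the homeodomain motif more often than low-conservation ones. TAATTA was found in the central 300 bases of 11.1% of 6460 conserved and 5.11% of 201612 low-conservation distal regions, and in 5.21% of all distal regions. CATTGT was found in 16.9% against 13.3%, with 13.5% of all. CAGCTG was found in 29.3% against 26.3% (26.7% of all), while CATATG was in 7.23% against 7.30% (7.14% of all). TGACTCA was rarer in conserved regions, at 5.57% against 9.93% (9.68% of all), as was TGACCT, at 13.9% against 15.4% (15.6% of all). TGACGTCA was in 0.356% against 0.342% (0.351% of all). The mean GC content of conserved and low-conservation distal regions was 50.0% and 50.4%, but they differed in CpG dinucleotides (7.54 against 4.75 in the central 300 bases) and in repeat sequence (6.49% against 20.7%), whose part in the motif shares was not tested.

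The same motifs were counted in called distal conserved regions. CATTGT was present in 60 of the 252 regions higher in VIP (23.8%) and in 20 of the 182 lower in VIP (11%), beside 15.9% of the 754 tested. Low-conservation regions had 18.7% and 8.95%, beside 12.0%. In PV it went the other way, with 10 of the 118 regions higher (8.47%) and 21 of the 95 lower (22.1%). Low-conservation regions had 8.7% and 18.4% there. In SST it was present in 17.9% of the regions higher and 23.4% of those lower, against 8.85% and 15.5% of low-conservation regions. The 3 comparisons share their samples and are not independent. CAGCTG was present in 39.0 to 59.4% of the regions called in any comparison, beside 42.6% of those tested, and TAATTA in 9.47 to 15.6%, beside 8.75%. Low-conservation regions had 39.4 to 55.2%, beside 42.9%, and 4.84 to 9.27%, beside 5.64%. A match describes letters in a window and not a bound site.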

How the data were processed

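ATAC-Seq was analysed in 6 samples of mouse cortical nuclei, 2 each of SST, PV and VIP interneurons. The authors trimmed reads with Trimmomatic 0.33, aligned them to mm10 with Subread 1.4.6-p3, and removed duplicates. They kept peaks called by MACS2 and HOMER in a replicate, merged them with peaks of other cortical experiments into 323369 reference regions, and counted reads with featureCounts. The deposited counts have no normalization. A deposited table gives each region the authors' MeanCons, a mean PhyloP score, and a mark of 0 or 1 per sample. The deposited peak lists give a −log10 q-value for each peak. The regions as listed extend 150 bases beyond the merged peaks on either side, and whether reads and scores were taken over the longer or the shorter window is not given in the sources used here.

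Regions were placed by GENCODE M21 protein-coding genes on GRCm38, each in the first class that applied of start (within 1 kb of a transcript start), coding exon, other exon, intron and intergenic. For the exon and intron classes any overlap was enough. Density is reads over length per 1000000 reads on reference regions (RPKM, or CPM where no length enters). Counts were tested with edgeR 4.0.16 in R 4.3.3 (TMM, filterByExpr, robust quasi-likelihood, Benjamini-Hochberg over 40338 regions, false discovery rate 0.05), checked on simulated data, with DESeq2 1.42.0 as an alternative. The simulated samples all had the same spread, so that check does not cover the larger spread between the SST replicates. SEs were derived from the log2 fold change and its F statistic. Same-numbered replicates had deviations that correlated at -0.036 to 0.03, so they were not treated as pairs. Counting intervals are exact, at 95%, and cover counting error only.

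Named regions were, for each comparison and direction, the 4 called conserved regions with the smallest adjusted p and no overlap between groups in CPM, then the 3 with the highest density, the highest MeanCons and, of the screened GREs, the most SST reads, and up to 4 genes of each list. The set, the lists and the rules were chosen with earlier results of these data known. Some items that these rules chose are not reported here. Single-nucleus RNA data were not used.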

Additional observations from a re-analysis of the deposited data

How the results depend on the processing

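Of the alternatives, 4 turned a direction. With a limit of 1.5 for MeanCons the mean log2 density ratio was -0.014. Among start regions it was -0.435, and the difference in the share marked was -12.5 percentage points. With comparison regions weighted to the classes of the conserved regions the ratio was -0.147. The last of these and the start regions alone were chosen after the data were seen. Under the other alternatives the ratio kept its sign, from 0.124 (regions with a mark in at least 1 sample) to 0.713 (MeanCons above 0.8), and the share marked from 3.63 to 9.95 points. Leaving out 1 sample gave ratios of 0.526 to 0.553 and shares of 5.55 to 6.82 points, where 5 samples cannot give an exact permutation p below 0.0625.

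Counts of called conserved regions depended on the test. DESeq2 called 31 higher and 23 lower in SST (98 and 76 with edgeR), 67 and 59 in PV (198 and 164), and 280 and 161 in VIP (375 and 304). Over all 40338 tested regions it called 864 and 589, 2494 and 1814, and 7247 and 5038, against 3349 and 2247, 6964 and 4859, and 10127 and 9677 with edgeR. Requiring both pairwise contrasts gave 22 and 14 in SST, 39 and 20 in PV and 241 and 164 in VIP. Without a filter on low counts PV had 115 higher and VIP 606 higher (375 with the filter). With only regions that overlap no other, 893 conserved regions were tested in place of 1430. Of these, PV had 131 higher and 106 lower and VIP 198 lower. Of all 30399 regions tested in that fit, 5460, 3858 and 7601 were called in these directions. These smaller counts thus go with fewer regions tested. With the replicate block, the counts were 91 and 63 in SST, 191 and 152 in PV and 369 and 294 in VIP. Over all 40338 tested regions that fit called 3035 and 1945, 6686 and 4461, and 9957 and 9284. The cause was not tested.

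Leaving out 1 sample gave 91 to 157 higher and 51 to 103 lower in SST, 69 to 288 and 53 to 263 in PV, and 276 to 512 and 162 to 360 in VIP. The counts that moved by over 1.5 times were those without SST replicate 1 (157 higher in SST, 263 lower in PV), without PV replicate 1 (69 and 53 in PV), without PV replicate 2 (109 and 69 in PV), and without VIP replicate 1 or 2 (182 and 162 lower in VIP). Each fit without 1 sample leaves 1 sample in a subtype and tested 1794 to 1900 conserved regions in place of 1430. A move in these counts was thus not separated from the change in the regions tested. The 24 subtype differences that chose the named regions kept their direction and call in all 258 alternative values. They were picked for the smallest adjusted p and no overlap between groups, and the alternatives refit the same reads. Keeping the call was thus largely set by the choice. For the other 62 called differences of named or listed regions, 659 alternative values kept their direction, and 132 of them lost the call. At this depth 11.7% of the distal and 52.8% of the start regions of the conserved set had enough reads to be tested.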
